A study of Mus musculus with 6 samples.

Results

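Transforming growth factor beta (TGF-β) and bone morphogenetic protein (BMP) ligands, with their receptors, SMADs, antagonists and targets, were followed in Comma-Dβ cells after knockdown of Id4. The 48 genes were taken by symbol from the 25655 genes of the count table, and all 48 had a row. They were grouped by textbook role into 21 genes of the TGF-β and activin arm, 18 of the BMP arm and 9 shared by both arms or acting on both. Comma-Dβ is an established mouse mammary epithelial line. Both groups were cells of this line at passage 29, transfected with 20 nM of a siRNA pool and harvested after 48 hr in medium with serum, insulin and epidermal growth factor. For siID4 the pool was siGENOME, directed at mouse Id4, and for NT it was the ON-TARGETplus control pool without a target. Product line and target therefore cannot be told apart in this design. The comparison asks what lower ID4 does to gene expression. Each group held 3 libraries from biological replicates of 1 line.

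TGF-β and activins are secreted ligands that bind a type II receptor, which then activates a type I receptor of the ALK family. In the TGF-β and activin arm the type I receptors phosphorylate SMAD2 and SMAD3, and in the BMP arm they phosphorylate SMAD1, SMAD5 and SMAD9. Both sets pair with SMAD4 and enter the nucleus. TGF-β is secreted in a latent form held in the matrix by some of the latent TGF-β binding proteins (LTBPs). BMPs are held back by secreted antagonists such as Noggin and Gremlin. In the mammary gland TGF-β is known for restraining epithelial growth and for promoting matrix and contractile genes. Id genes, relatives of the siRNA target, are among the best known transcriptional targets of BMP.

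Libraries held 19.2 to 23.1 M counts. Id4 was at 122 ± 11.5 CPM (counts scaled to each library's TMM-adjusted total) in NT and 56.6 ± 7.41 CPM in siID4 (mean ± SD, n = 3 per arm, log2 fold change −1.11, SE 0.10, edgeR adjusted p = 8.65e-04). All 8 epithelial markers were present, with a summed level of 2324 to 2662 CPM in the NT libraries and 2141 to 2489 CPM in siID4. Cdh1 and Trp63 rose and Epcam fell, and with the replicate number as a block 2 rose and 5 fell. Cdh1 and Trp63 were lost without NT replicate 2 (adjusted p = 0.0964 and 0.105), NT replicate 3 (0.0619 and 0.0782), siID4 replicate 1 (0.0629 and 0.0771) or siID4 replicate 2 (0.0637 and 0.0932). Epcam was lost without siID4 replicate 2 (0.109) or siID4 replicate 3 (0.0584). The 6 leukocyte markers summed to 3.03 to 3.11 CPM in NT and 3.35 to 3.77 CPM in siID4, and 4 were under 1 CPM in every library. The 7 endothelial markers summed to 28.3 to 31.9 CPM in NT and 39.2 to 40.0 CPM in siID4. Nearly all of that was Flt1, which rose by 0.36 on the log2 scale (adjusted p = 0.0138, 0.0671 without siID4 replicate 2), and the other 6 were under 1 CPM in every library. The 9 fibroblast markers summed to 3155 to 3728 CPM in NT and 4439 to 5111 CPM in siID4, most of it from collagen genes, and Lum was below 1 CPM in every library. Of the 8 fibroblast markers tested Col1a1 (0.63), Col1a2 (0.40) and Pdgfrb (0.43) rose and Pdgfra (−0.62) fell, and with the replicate number as a block 6 rose and 2 fell. Pdgfrb and Pdgfra were each lost in 3 of the 6 fits that left out 1 library, without NT replicate 2 (adjusted p = 0.0825 and 0.0895) and siID4 replicate 2 (0.0890 and 0.103) for both, siID4 replicate 1 for Pdgfrb (0.0623) and siID4 replicate 3 for Pdgfra (0.0584). The part of these marker levels in the results below was not tested.

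Of the 48 genes, 44 passed the filter on low counts and were tested. Among them 7 rose and 1 fell at an edgeR adjusted p below 0.05, which is 18.2% called beside 9.55% of all 13941 genes tested. By direction, 15.9% of the 44 rose beside 4.62% of all genes, and 2.27% fell beside 4.93%. The genes that rose were Tgfb3, Ltbp2, Tgfbr2 and Pmepa1 in the TGF-β arm, Bmp4 and Smad6 in the BMP arm, and Fstl1 among the shared genes. Tgfbr3 fell. The median log2 fold change of the 44 was 0.10 beside 0.00 over all genes tested, and the median size regardless of sign was 0.17 beside 0.12. DESeq2 called 7 of them beside 10.7% of all genes, and limma-voom called 9 beside 9.55%. Without NT replicate 2 or without siID4 replicate 2 only 3 members rose, beside 2.05% and 1.56% of all genes, 4 rose without siID4 replicate 1, beside 2.87%, and 0 fell without siID4 replicate 2 or with no filter on low counts.

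Split by arm, 4 of 21 TGF-β arm genes rose and 1 fell (23.8% called, beside 9.55% of all genes tested). The median log2 fold change of this arm was 0.14. Without NT replicate 2 only 1 rose, and 2 rose without NT replicate 3, siID4 replicate 1 or siID4 replicate 2. Of 15 BMP arm genes tested 2 rose and 0 fell by edgeR (13.3% called), with a median of 0.04. At an unadjusted p below 0.05, 4 rose and 0 fell. DESeq2 called 1 up and 0 down, and limma-voom 3 up and 0 down. Without siID4 replicate 2 no BMP arm gene rose (0), and 1 rose without NT replicate 2, siID4 replicate 1 or siID4 replicate 3. Of 8 shared genes tested 1 rose (12.5% called), with a median of 0.12. The BMP arm and shared shares are near the 9.55% of all genes. The share of all genes that rose was 2.05% without NT replicate 2 and 2.99% without NT replicate 3. It was 2.87%, 1.56% and 3.53% without siID4 replicate 1, 2 and 3. The numbers are small and the difference between the arms was not tested. The arms also differed in level. The median gene tested was at 63.5 CPM in the TGF-β arm and 4.71 CPM in the BMP arm, beside 27.0 CPM over all genes. Genes under 5 CPM were 0 of 21 in the TGF-β arm and 8 of 15 in the BMP arm. The part of level in the shares called was not tested. Arms did not overlap in 17 of the 44 genes (38.6%, beside 30.9% of all genes tested).

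**Figure D1:**
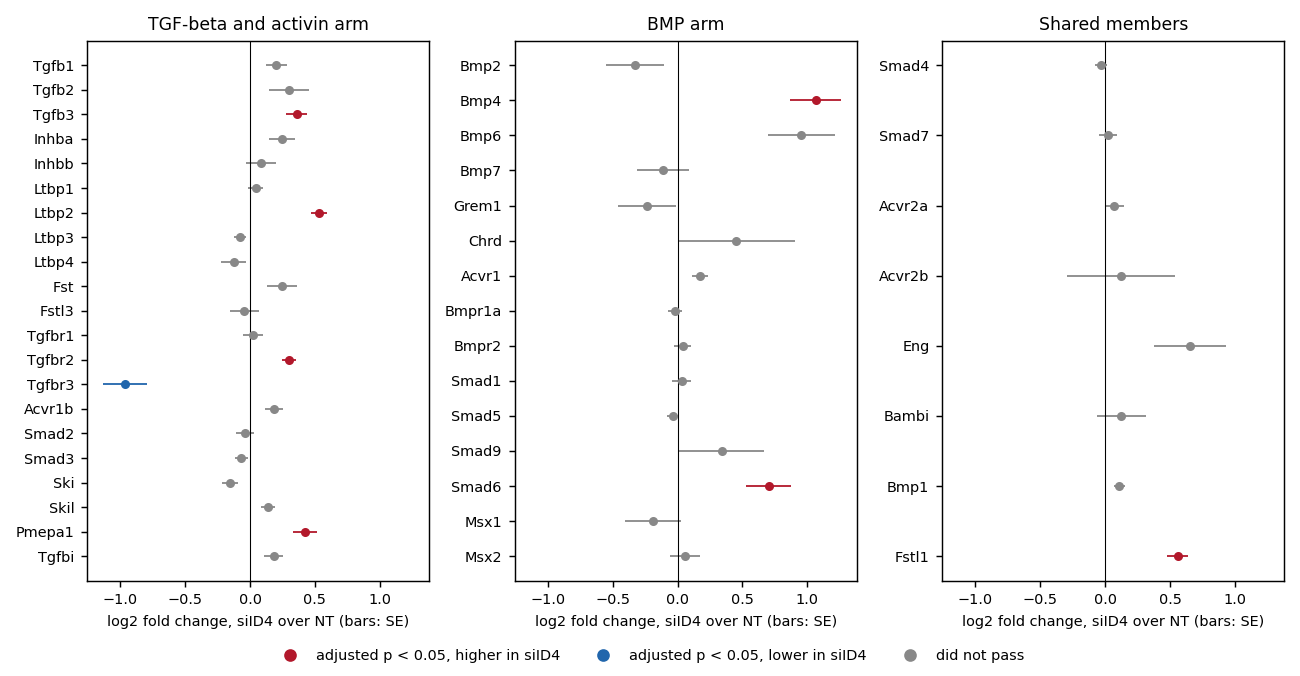
Log2 fold change of siID4 over NT (x axis, bars are SE) for the 44 members tested, in 3 panels by arm, with genes that passed in colour. Tgfbr3 stands alone on the left at −0.97, and Bmp4 has the highest value at 1.07.

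Of the ligands of the TGF-β and activin arm, Tgfb3 rose and the other 4 did not pass. Tgfb3, on chromosome 12 from 86056745 to 86079041 (minus strand of GRCm38, protein-coding), encodes the TGF-β3 ligand. It stood at 114, 113 and 106 CPM in NT replicates 1 to 3 and at 153, 150 and 124 CPM in siID4. Every siID4 library was above every NT library, and siID4 replicate 3 lay nearest to the controls. The log2 fold change was 0.36 (SE 0.08, adjusted p = 0.0228). This call was lost without NT replicate 2 (adjusted p = 0.0803), NT replicate 3 (0.0645), siID4 replicate 1 (0.0608) or siID4 replicate 2 (0.114).

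Tgfb1, which encodes the most studied TGF-β ligand, was at 33.9, 30.7 and 37.1 CPM in NT and 37.7, 38.6 and 40.6 CPM in siID4. Its arms did not overlap, but the gap was narrow (log2 fold change 0.20, SE 0.08, adjusted p = 0.153). Tgfb2 was at 38.0, 30.3 and 30.5 CPM in NT and 49.8, 38.4 and 33.3 CPM in siID4. Its arms overlapped, with replicate 1 high in both (0.30, SE 0.15, adjusted p = 0.272). Inhba and Inhbb, whose products form activins, had log2 fold changes of 0.25 and 0.08. With the replicate number as a block in the model, Tgfb1 (adjusted p = 0.00434), Tgfb2 (1.62e-04) and Inhba (0.0111) passed and Inhbb (0.0803) did not.

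Levels of different genes are compared as TPM, counts per base of gene length scaled to a common total in each library. Over the NT libraries the level of Tgfb3 was 61.3 ± 2.57, that of Inhbb 33.0 ± 3.61, of Tgfb1 30.0 ± 2.69, of Inhba 15.1 ± 1.56 and of Tgfb2 14.9 ± 1.97. Inhbb and Tgfb1 lay within their spread of each other, as did Inhba and Tgfb2. The ligand gene that rose by the test was thus the one with the highest TPM among these 5.

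Among the genes of the LTBP family Ltbp2 rose and Ltbp1, Ltbp3 and Ltbp4 did not pass. The family name does not show that the product of Ltbp2 binds latent TGF-β, and such binding was not measured. Ltbp2 lies on chromosome 12 from 84783212 to 84876532 (minus strand), and its product is a matrix protein of the LTBP family that associates with fibrillin microfibrils. The NT libraries held 49.1, 51.8 and 54.7 CPM and the siID4 libraries 77.9, 76.1 and 71.1 CPM. The arms were well apart, and the spread within each was small. Ltbp2 rose by 0.53 on the log2 scale (SE 0.06, adjusted p = 0.00177) and passed in all 6 fits that left out 1 library (highest adjusted p 0.0192). Of its exon bases, 764 are shared with an antisense gene, D030025P21Rik, that held a mean of 16.2 counts per library against 1387 for Ltbp2.

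Ltbp3 had the highest TPM in the family, 139 ± 4.04 in NT, and its log2 fold change was −0.08 (adjusted p 0.319, or 0.0231 with the block). Ltbp1 followed at 64.3 ± 2.27 TPM, and Ltbp2 and Ltbp4 were at 15.6 ± 0.816 and 13.7 ± 1.54 TPM. Log2 fold changes were 0.04 for Ltbp1 and −0.13 for Ltbp4. Ltbp2 was thus a minor member of the family by mRNA level in the control cells.

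The promoter window of Ltbp2 held 2 kinds of motif that bear on this experiment: E-boxes (CANNTG) and the SMAD box CAGAC. E-boxes bind basic helix-loop-helix proteins, of which ID proteins sequester some. Promoter windows are RefSeq's on GRCm38.p6, 250 bases before to 50 after the annotated start, searched on both strands, and 33 of the 48 genes had at least 1 (41 windows in all). Of all 300-base windows 72.3% hold an E-box and 49.6% a SMAD box, so either motif is common, and of the 41 windows 56.1% and 43.9% do. The stretches below show 2 E-boxes and a SMAD box of Ltbp2, at chr12:84876697-84876726, chr12:84876672-84876701 and chr12:84876679-84876708 on the minus strand, with the motif in capitals.
Ltbp2 E-box at position −223: aaaaaggcagctCAGGTGcgctggtccagg
Ltbp2 E-box at position −198: ccaggcagacgcCATCTGtctttccagtcc
Ltbp2 SMAD box at position −205: cgctggtccaggCAGACgccatctgtcttt
Positions count from the annotated start to the motif's first base. The 3 stretches overlap one another and the motifs do not, with the SMAD box just ahead of the second E-box. A match of letters is a description and not a binding site.

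In the TGF-β arm 1 receptor gene rose and 1 fell. Tgfbr2 encodes the type II receptor, which binds TGF-β, and lies on chromosome 9 from 116084293 to 116175360 (minus strand). It held 289, 272 and 259 CPM in NT and 353, 337 and 320 CPM in siID4. The lowest siID4 library was above the highest NT library, and the log2 fold change was 0.30 (SE 0.06, adjusted p = 0.0108). The call was narrowly lost without NT replicate 2 (adjusted p = 0.0545) or siID4 replicate 2 (0.0569).

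Tgfbr3 encodes betaglycan, a coreceptor that presents TGF-β ligands, TGF-β2 above all, to the type II receptor. It lies on chromosome 5 from 107106570 to 107289629 (minus strand). Its level was 66.9, 56.0 and 44.3 CPM in NT and 33.1, 29.0 and 23.3 CPM in siID4. The NT libraries differed among themselves, and yet the arms were well apart. Within each replicate number the log2 difference was −1.01, −0.94 and −0.92, a narrow range. The log2 fold change was −0.97 (SE 0.17, adjusted p = 0.0124), or 0.512 of the NT level. The gene did not pass without siID4 replicate 2 (adjusted p = 0.0528) or with no filter on low counts (0.0674). A gene model of uncertain coding status on the same strand, Gm43422, shares 297 of its exon bases and held a mean of 9.67 counts against 891 for Tgfbr3.

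Tgfbr1, the type I receptor of TGF-β, was at 52.1, 45.7 and 48.0 CPM in NT and 54.0, 46.6 and 47.5 CPM in siID4. Its log2 difference was 0.02 (SE 0.08, adjusted p = 0.893). Acvr1b, the type I receptor of activin, had 0.18 (adjusted p = 0.126, 0.0103 with the block). In TPM over the NT libraries, Tgfbr2 stood at 108 ± 5.93, Tgfbr3 at 19.4 ± 3.96, Tgfbr1 at 17.5 ± 1.10 and Acvr1b at 11.4 ± 0.346. Tgfbr3 and Tgfbr1 did not differ beyond their spread there, whereas in siID4 Tgfbr3 was at 10.3 ± 1.83 and Tgfbr1 at 18.4 ± 1.49 TPM.

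**Figure D2:**
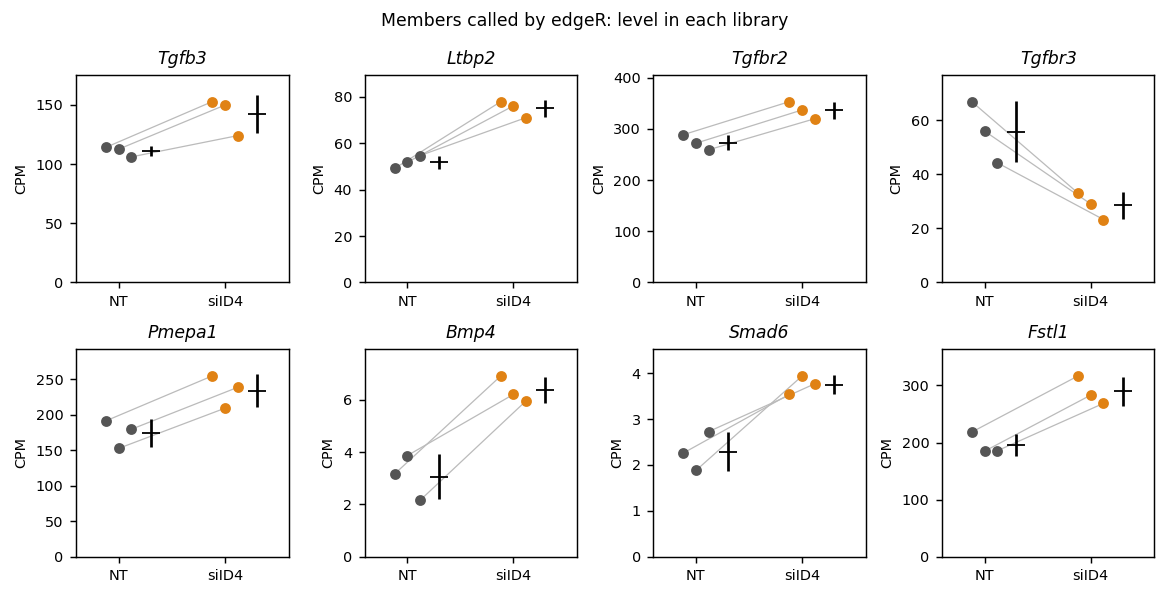
CPM in each library (points, with lines joining same-numbered libraries and bars for mean ± SD) of the 8 members called by edgeR, each on its own axis from 0. In every panel the NT and siID4 points do not overlap, and Tgfbr3 is the gene that is lower in siID4.

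Follistatin genes, whose products bind activins, did not pass. The log2 fold change was 0.25 for Fst (adjusted p = 0.211, 0.00495 with the block) and −0.04 for Fstl3 (adjusted p = 0.849). The receptor-regulated SMADs of this arm did not pass either. Smad2 was at 53.2 ± 4.33 and 51.7 ± 0.689 CPM in NT and siID4 (log2 fold change −0.04, SE 0.07), and Smad3 at 81.8 ± 2.20 and 77.9 ± 3.11 CPM (−0.07, SE 0.05).

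Of 4 genes that act on or follow SMAD2 and SMAD3, Pmepa1 rose. Pmepa1, a TGF-β-induced gene whose product binds these SMADs and dampens their signal, lies on chromosome 2 from 173224458 to 173276533 (minus strand). Its level was 191, 153 and 179 CPM in NT and 254, 209 and 238 CPM in siID4. Replicate 2 was low in both arms, and the differences within replicate numbers were nearly alike at 0.41, 0.45 and 0.41. The log2 fold change was 0.42 (SE 0.10, adjusted p = 0.0299). It was lost without NT replicate 2 (adjusted p = 0.0777), NT replicate 3 (0.0626), siID4 replicate 1 (0.0772) or siID4 replicate 3 (0.0697).

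Skil and Ski encode related corepressors of SMADs. Skil, also a TGF-β target, was at 93.7, 98.3 and 96.3 CPM in NT and 100, 107 and 110 CPM in siID4 without overlap (log2 fold change 0.14, adjusted p = 0.126). Ski had −0.16 (adjusted p = 0.142) and Tgfbi, a secreted TGF-β-induced matrix protein, had 0.18 (adjusted p = 0.152). With the block Skil (0.00127), Ski (2.55e-04) and Tgfbi (1.21e-04, as adjusted p) passed. The sign of Ski and Skil thus differed.

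In the BMP arm, ligand mRNAs were scarce. Over the NT libraries Bmp4 stood at 3.33 ± 0.952 TPM, Bmp7 at 1.96 ± 0.179, Bmp2 at 1.43 ± 0.367 and Bmp6 at 0.586 ± 0.167 TPM. Their receptors Bmpr1a (52.8 ± 3.37 TPM), Acvr1 (42.9 ± 2.52 TPM) and Bmpr2 (25.8 ± 1.74 TPM) were well above them. Gdf6, a related growth factor gene, had a count in 1 of the 6 libraries only.

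Bmp4 rose. It lies on chromosome 14 from 46383520 to 46390669 (minus strand) and encodes a ligand active in many epithelia and their stroma. Its level was 3.16, 3.86 and 2.16 CPM in NT and 6.91, 6.20 and 5.96 CPM in siID4. Every siID4 library was above every NT library. The log2 fold change was 1.07 (SE 0.20, adjusted p = 0.0111), a 2.09-fold level, and the gene passed in 5 of the 6 fits without 1 library, the exception being siID4 replicate 2 (adjusted p = 0.0542). Per unit of length its siID4 level was 7.16 ± 0.576 TPM.

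The Bmp4 window held 3 E-boxes and neither a SMAD box nor the other SMAD motifs searched. They lie at chr14:46390840-46390869, chr14:46390829-46390858 and chr14:46390775-46390804 on the minus strand, and are shown with the E-box in capitals. Bmp4 was picked as the member with the highest fold change. An E-box stands in 72.3% of all windows and in 56.1% of the members' windows, and a match of letters is not a binding site. Whether partners of ID proteins bind these was not tested.
Bmp4 E-box at position −188: tagtacctcttgCACGTGgtccccaggtga
Bmp4 E-box at position −177: gcacgtggtcccCAGGTGagccccggctgc
Bmp4 E-box at position −123: cagccaaggtggCAACTGagggctggggag
The stretches of the upper pair overlap, and their motifs do not.

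Bmp6 was at 0.954, 0.783 and 0.528 CPM in NT and 1.47, 1.40 and 1.49 CPM in siID4, without overlap. It missed the threshold narrowly (log2 fold change 0.95, SE 0.26, adjusted p = 0.0505), and passed with library totals (0.0454), with limma-voom (0.0488), with the block (0.00496) and without NT replicate 1 (0.0421). Its exons share 224 bases with Txndc5 on the opposite strand, which held a mean of 6966 counts against 24.2 for Bmp6, and the strand setting of the counting is not given in the sources used here. Bmp2 (log2 fold change −0.33, adjusted p = 0.405) and Bmp7 (−0.11, adjusted p = 0.782) did not pass, with or without the block, and their arms overlapped.

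**Figure D3:**
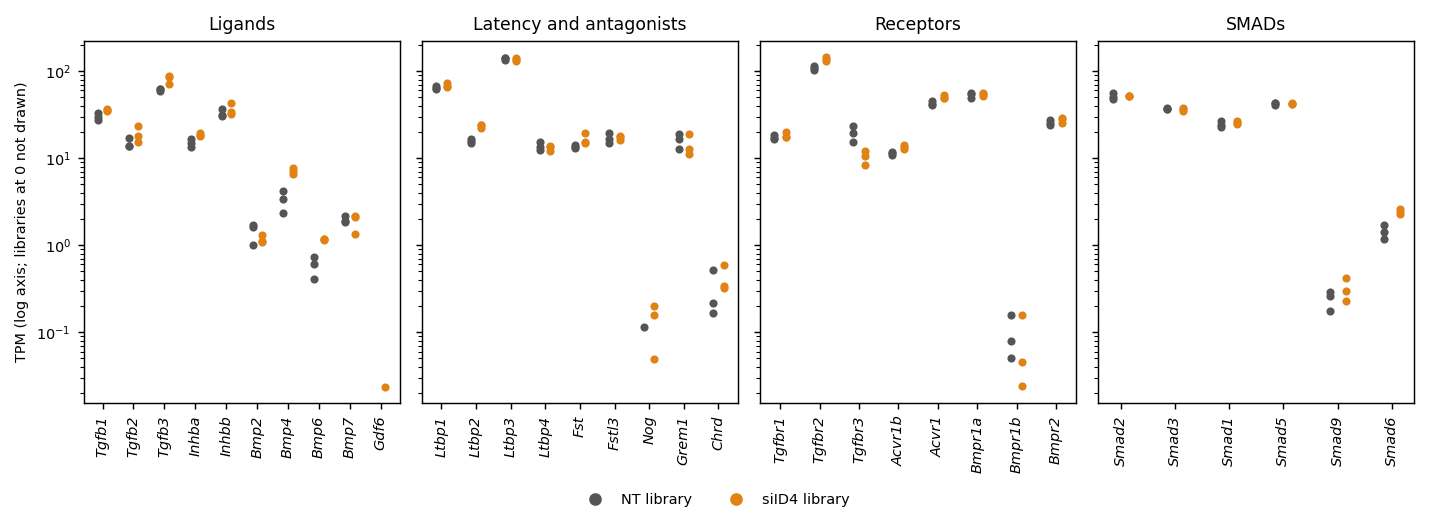
TPM on a log axis for ligands, latency proteins and antagonists, receptors and SMADs, with 1 point per library (grey NT, orange siID4, libraries at 0 not drawn). BMP ligand genes lie well below those of the TGF-β and activin ligands, and Tgfbr2 and Ltbp3 lie above 100 TPM.

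Antagonists of BMP among the 48 genes did not pass. Grem1, which encodes Gremlin, was at 42.6, 28.3 and 37.4 CPM in NT and 40.9, 23.5 and 27.7 CPM in siID4. The libraries varied more by replicate number than by arm, with replicate 2 low in both (log2 fold change −0.23, SE 0.22, adjusted p = 0.571, 0.00257 with the block). Chrd, for Chordin, was at 0.546 ± 0.345 and 0.739 ± 0.263 CPM. Nog, for Noggin, held at most 4 counts in a library, below the filter.

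BMP receptor genes did not pass. Acvr1, the type I receptor also called ALK2, was at 64.1, 58.1 and 57.8 CPM in NT and 71.7, 65.1 and 66.2 CPM in siID4, narrowly without overlap (log2 fold change 0.17, SE 0.06, adjusted p = 0.126, 6.12e-04 with the block). Bmpr1a had −0.02 (SE 0.06) and Bmpr2, the type II receptor, 0.04 (SE 0.06). Bmpr1b held at most 7 counts in a library, below the filter.

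Among the SMADs of the BMP arm, the inhibitory Smad6 rose and the signal carriers did not pass. Smad6, on chromosome 9 from 63953076 to 64022059 (minus strand), encodes an inhibitor that blocks BMP receptor signalling and is itself induced by BMP. Its level was 2.26, 1.88 and 2.73 CPM in NT and 3.54, 3.94 and 3.77 CPM in siID4. The siID4 libraries were tightly grouped above the NT libraries (log2 fold change 0.70, SE 0.17, adjusted p = 0.0370). The gene passed with the block (adjusted p = 9.89e-04), and the call without the block is fragile. It was lost with DESeq2 (adjusted p = 0.0541) and without NT replicate 1 (0.0700), NT replicate 2 (0.122), siID4 replicate 1 (0.0668), siID4 replicate 2 (0.145) or siID4 replicate 3 (0.0822).

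Smad6 was the member whose window held the SMAD palindrome GTCTAGAC, which 0.213% of all windows hold. Smad6 is named for this match, found by searching several motifs over 41 windows, and a match of letters is not a binding site. The palindrome lies across the annotated start, at position −4, and an E-box follows at position 7. The 30 bases around each, chr9:64022045-64022074 and chr9:64022035-64022064 on the minus strand, are shown with the motif in capitals.
Smad6 SMAD palindrome: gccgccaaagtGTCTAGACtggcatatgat
Smad6 E-box: tgtctagactggCATATGatgggaggcagc
A further GC-rich SMAD motif, GGCGCC, stood in 31.7% of the members' windows and 11.9% of all windows, and in none of the windows of Bmp4, Smad6, Ltbp2, Tgfbr2 and Fstl1. Base composition was not matched in these shares.

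Smad1 was at 40.5 ± 3.18 and 41.4 ± 1.74 CPM, and Smad5 at 126 ± 2.38 and 123 ± 0.503 CPM in NT and siID4 (log2 fold changes 0.03 and −0.04). Smad9 was scarce, 0.242 ± 0.0610 TPM in NT against 24.4 ± 1.93 for Smad1 and 42.0 ± 0.825 for Smad5. Msx1 and Msx2, homeobox genes that BMP induces in many tissues, had log2 fold changes of −0.19 (SE 0.21, adjusted p = 0.636) and 0.06 (SE 0.11, adjusted p = 0.811).

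Of the shared genes Fstl1 rose. Fstl1, on chromosome 16 from 37776873 to 37836514 (plus strand), encodes a secreted follistatin-like glycoprotein described as a modulator of signalling in both arms. It held 218, 185 and 186 CPM in NT and 317, 283 and 269 CPM in siID4. Replicate 1 was high in both arms, and the arms were well apart. Fstl1 rose by 0.56 on the log2 scale (SE 0.08, adjusted p = 0.00460) and passed in all 6 fits without 1 library (highest adjusted p 0.0292). Fst and Fstl3, related by name and by their follistatin domain, did not pass.

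The common partner Smad4 was at 70.7 ± 0.742 and 69.1 ± 1.96 CPM and the inhibitory Smad7, a target of both arms, at 22.2 ± 0.124 and 22.5 ± 0.971 CPM in NT and siID4 (log2 fold changes −0.03, SE 0.05, and 0.02, SE 0.07). Smad7 and Smad6, the pair of inhibitory SMADs, therefore had different values, a difference that was not tested. Bmp1, a protease that cleaves procollagens, Chordin and LTBP1, was at 212 ± 8.20 and 229 ± 4.74 CPM (0.11, adjusted p = 0.166, 0.00229 with the block). Acvr2a, a type II receptor of activins and BMPs, had 0.07, and Bambi, a decoy receptor, 0.12.

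Eng encodes endoglin, a coreceptor best known from endothelial cells. It was at 1.25, 1.10 and 0.748 CPM in NT and 1.81, 1.18 and 1.84 CPM in siID4, with overlap (log2 fold change 0.65, SE 0.28, adjusted p = 0.179, 0.0398 with the block), and it shares 61 exon bases with Fpgs on the opposite strand. Acvrl1, an endothelial type I receptor, had 3 counts in all over the 6 libraries. The summed endothelial markers given above were higher in siID4 as well, mostly from Flt1. Kdr, the other endothelial marker tested, had 1.35 (adjusted p = 0.0742, 0.0106 with the block, 0.0421 without NT replicate 3). The 5 endothelial markers not tested were below the filter on low counts, and 1 of them, Tie1, was at 0 in every library. The part of these markers in the level of Eng was not tested.

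Libraries with the same number deviated together, and a model with the number as a block called 22 of the 44 members (beside 36.1% of all genes tested). The block called 18 up and 4 down, and 14 of the 22 are members that the main test did not call. Those 14 are Tgfb1, Tgfb2, Inhba, Fst, Acvr1b, Skil, Tgfbi, Bmp6, Acvr1, Eng and Bmp1, which were higher in siID4, and Ltbp3, Ski and Grem1, which were lower. By arm the block called 11 up and 3 down of 21 in the TGF-β arm, and 4 up and 1 down of 15 in the BMP arm. That is 66.7% and 33.3% called, beside 36.1% of all genes, of which 17.9% rose and 18.3% fell. The BMP arm share is near that background. Its genes were also scarcer than those of the TGF-β arm, and the part of level in these shares was not tested. All 3 same-numbered differences had 1 sign in 30 of 44 members, 68.2%, beside 59.5% of all genes tested. That share is near the background.

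**Figure D4:**
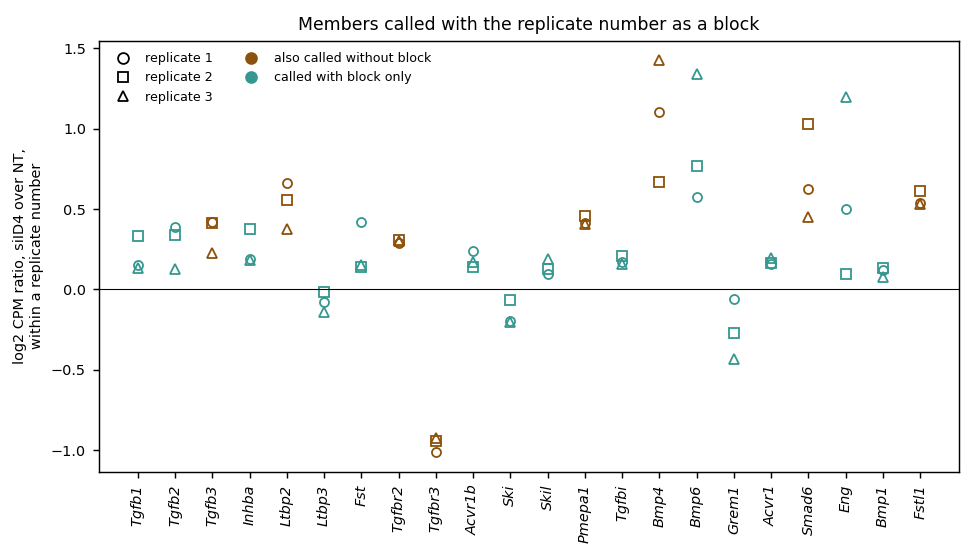
Log2 ratio of CPM (plus 0.1) of siID4 over NT within each replicate number (symbols) for the 22 members called with the block, brown where the main test also called them. Tgfbr2, Tgfbr3, Pmepa1 and Fstl1 show 3 symbols close together, whereas Bmp4, Bmp6, Smad6 and Eng spread widely.

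Beyond the 48 genes, 68 further genes of the pathway were in the table and 42 were tested. Of these 4 rose and 2 fell (14.3%, beside 9.55% of all genes tested), or 11 and 7 with the block (42.9%, beside 36.1%). Only 1 rose without NT replicate 2, siID4 replicate 1 or siID4 replicate 2, beside 2.05%, 2.87% and 1.56% of all genes. Without NT replicate 3, 2 rose, beside 2.99%. Without NT replicate 2, NT replicate 3 or siID4 replicate 2, 1 fell, beside 2.39%, 3.41% and 1.58%. Their median log2 fold change was 0.00. Of 16 extracellular regulators tested 3 rose and 1 fell (25.0% called, beside 9.55% of all genes). Of 20 intracellular regulators, among them the ubiquitin ligase genes Smurf1 and Smurf2, 0 rose and 1 fell by edgeR (5.0%). At an unadjusted p below 0.05, 1 of these 20 rose and 3 fell, and by DESeq2 and by limma-voom 0 rose and 1 fell. Strap, which fell by edgeR, kept its call only without siID4 replicate 3 when libraries were left out in turn. It lost the call with library totals. Of 3 further receptor genes tested Nrp1 rose (0.20, SE 0.04, adjusted p = 0.0214). Its call was lost without NT replicate 2 (0.0794), siID4 replicate 1 (0.0504) or siID4 replicate 2 (0.115). With the block 8 of the extracellular regulators rose and 2 fell (62.5% called). Of the intracellular regulators 2 rose and 4 fell with the block (30.0%, beside 36.1% of all genes). Whether the groups differ was not tested.

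Itgav encodes the αV integrin chain, part of the integrins that release TGF-β from its latent form. It fell from 182 ± 5.38 to 122 ± 4.82 CPM, which is −0.58 on the log2 scale (SE 0.05, adjusted p = 3.91e-04). Its partner chain Itgb8 missed the threshold (0.33, adjusted p = 0.0765) and passed with the block (1.36e-07), when scarce genes were not filtered out (0.0345), by DESeq2 (0.0310), or when NT replicate 1 (0.0274) or siID4 replicate 3 (0.0458) was left out. Itgb6 did not pass (0.47, adjusted p = 0.281). Sostdc1, for a secreted antagonist of BMP and Wnt, went from 0.830 ± 0.155 to 2.42 ± 0.357 CPM (1.55, SE 0.23, adjusted p = 0.00466). Both genes passed in all 6 fits without 1 library.

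Nbl1, for a BMP antagonist of the DAN family, went from 19.5 ± 2.62 to 28.6 ± 4.87 CPM (0.55, SE 0.14, adjusted p = 0.0382). Bgn, for the proteoglycan biglycan, went from 6.65 ± 1.64 to 12.7 ± 2.98 CPM (0.94, SE 0.22, adjusted p = 0.0338). Nbl1 and Bgn were both lost without NT replicate 2 (adjusted p = 0.130 and 0.102), NT replicate 3 (0.102 and 0.0662), siID4 replicate 1 (0.0772 and 0.0815) or siID4 replicate 2 (0.121 and 0.126).

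Genes known to respond to the arms were given their own lists, chosen, like the members, with earlier results of these data known. The shares called in both lists carry that limit. Of 19 genes responsive to TGF-β, 5 rose and 0 fell by edgeR (10 and 1 at an unadjusted p below 0.05, 6 and 1 by DESeq2, 6 and 0 by limma-voom), with a median log2 fold change of 0.24. By edgeR 26.3% of the 19 were called, beside 9.55% of all genes tested. With the block 12 rose, beside 17.9% of all genes, and without siID4 replicate 2 only 3 did, beside 1.56%. Tagln, which encodes the actin-binding smooth muscle protein transgelin, was at 21.2, 23.7 and 34.2 CPM in NT and 70.8, 68.1 and 91.4 CPM in siID4 without overlap (1.54, SE 0.19, adjusted p = 0.00400), with replicate 3 high in both arms. Acta2, for smooth muscle actin, had 0.90 (adjusted p = 0.0195), a call lost without NT replicate 2 (0.0545), siID4 replicate 1 (0.0603), siID4 replicate 2 (0.0554) or siID4 replicate 3 (0.0595), and with no filter on low counts (0.125). Several list members are contractile or matrix genes, such as Tagln, Acta2, Col1a1 and Timp3, and the summed fibroblast markers given above, which include Col1a1, moved with them. Ctgf (0.36, adjusted p = 0.230, 0.0185 without NT replicate 3), Cdkn1a (−0.07, adjusted p = 0.914) and Junb (0.19, adjusted p = 0.599) did not pass.

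Of 12 BMP-responsive genes tested 5 rose and 0 fell by edgeR (7 and 0 at an unadjusted p below 0.05, 4 and 0 by DESeq2, 5 and 0 by limma-voom), with a median of 0.32. They were Id3, Dlx2, Gata3, Atoh8 and Runx2. By edgeR 41.7% of the 12 were called, beside 9.55% of all genes tested, and with the block 7 rose, beside 17.9%. Only 2 of the 5 passed without NT replicate 2 or siID4 replicate 2, where 2.05% and 1.56% of all genes rose. Dlx2, a homeobox gene, went from 0.245 ± 0.0602 to 0.866 ± 0.0973 CPM (1.81, SE 0.33, adjusted p = 0.0100) and passed in all 6 fits without 1 library, as did Id3 (1.58). Runx2, a transcription factor best known from bone, rose by 0.27 (adjusted p = 0.0355). It was lost without NT replicate 2 (0.132), NT replicate 3 (0.0976), siID4 replicate 1 (0.0954) or siID4 replicate 2 (0.142). Atoh8, for a basic helix-loop-helix factor, had 1.22 (adjusted p = 0.0304) and was lost without NT replicate 1 (0.0645), NT replicate 2 (0.0545), NT replicate 3 (0.0852), siID4 replicate 2 (0.121) or siID4 replicate 3 (0.0568). Gata3, a transcription factor of the luminal lineage, had 0.36 (adjusted p = 0.0131) and was lost without NT replicate 2 (0.0658) or siID4 replicate 2 (0.0728). Of the other Id genes, Id1 went from 36.4 ± 10.4 to 54.5 ± 11.4 CPM (0.58, SE 0.22) with overlap and missed the threshold (adjusted p = 0.161), passing without NT replicate 3 (0.0317). Id2 (0.26, SE 0.11, adjusted p = 0.161) passed with the block (2.26e-04). Hey1 (0.05) and Dlx5 (0.16) did not pass, as Msx1 and Msx2 did not.

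**Figure D5:**
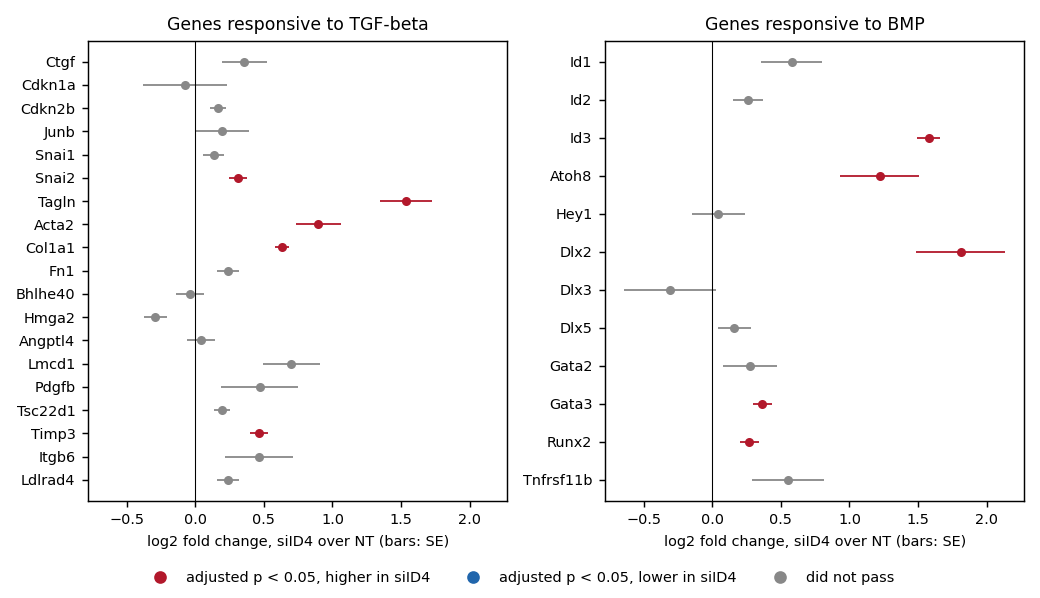
Log2 fold change of siID4 over NT (x axis, bars are SE) for the tested genes responsive to TGF-β (left) and to BMP (right), with genes that passed in red. Tagln and Acta2 lie to the right on the left panel, and Dlx2, Id3 and Atoh8 on the right panel, each above 0.8.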

How the data were processed

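The authors deposited 1 table of expected counts and gene lengths for 6 poly(A) RNA libraries. Per the submitters' processing notes, RSEM, STAR and cutadapt were used with the build mm10, without versions. For annotation release, strand setting and the table's filter, the status is: not given in the sources used here. Between 10.0% and 10.6% of values per library were not whole, and all were rounded. Expected counts share reads between similar genes by estimate.

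The members, lists and roles were chosen with earlier results of these data known. Genes were tested by edgeR's quasi-likelihood method (4.0.16, R 4.3.3, robust, TMM scaling, group only) over the 13941 genes kept by filterByExpr, with Benjamini-Hochberg adjustment over all of them and a threshold of 0.05. SEs came from the F statistic. The edgeR script was tested on simulated data. CPM is TMM-scaled. TPM, from counts and the length column, is not, and serves only to compare genes. For 3 libraries per arm the smallest exact permutation p is 0.1.

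Both arms use the same replicate numbers. Deviations from the group mean were correlated across genes between libraries of 1 number (0.42, 0.14 and 0.38), so the block was treated as a pairing, and its value stands beside results whose call it changed. What the pairs have in common is not in the labels. All same-arm pairs differed by more than sampling noise (chi-square 4.81 to 12.8 per gene). Alternatives were DESeq2 size factors, library totals, no filter, a mean of at least 5 CPM, DESeq2 (1.42.0), limma-voom (3.58.1), the block and leaving out each library. 1 gene of the TGF-β response list is not reported here. All members could be named. Id4 and Id1 to Id3 could be named too, as could the marker genes, and up to 5 called genes from each pathway and response list by adjusted p. Genes of those lists named without a call (Itgb6, Itgb8, Smurf1, Smurf2, Ctgf, Cdkn1a, Junb, Hey1, Dlx5) were picked after their values were seen. Coordinates are from GENCODE M21 on GRCm38, which is mm10.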

Additional observations from a re-analysis of the deposited data

How the results depend on the processing

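The fall of Id4 and the direction of the 8 called members held in every setting in which they were tested. With the replicate number as a block, 2493 genes rose and 2545 fell over the whole table, and 18 members rose and 4 fell. By arm 11 rose and 3 fell for TGF-β, 4 rose and 1 fell for BMP, and 3 shared genes rose. The block called 11 other pathway genes up and 7 down, and 12 TGF-β-responsive genes up, and ended the call of no member. With no filter on low counts 0 members fell (0 in the TGF-β arm), since Tgfbr3 was lost. At a mean of at least 5 CPM 0 BMP arm genes rose and 3 BMP-responsive genes did, because Bmp4, Smad6 and other scarce genes were not tested. DESeq2 called 1 BMP arm gene up and 1 TGF-β-responsive gene down. With library totals 1 other pathway gene fell. Other scalings moved no other count by over 1.5 times.

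Leaving out 1 library gave 221 to 686 genes up and 224 to 665 down, 3 to 7 members up and 0 to 1 down, 1 to 4 TGF-β arm genes up and 0 to 1 down, 0 to 2 BMP arm genes up, 1 to 6 other pathway genes up and 1 to 2 down, 3 to 6 TGF-β-responsive genes up and 0 to 1 down, and 2 to 4 BMP-responsive genes up. The median log2 fold change of the members ran from 0.0182 (without siID4 replicate 1) to 0.13 and that of the BMP arm from −0.0025 (without siID4 replicate 1) to 0.0924 (without NT replicate 1). Each such fit has 1 library fewer and no block, so 1 replicate number lacks its partner. Counting precision is low for Bmp2, Bmp4, Bmp6, Bmp7, Smad6 and Eng, all under 8 CPM, and the 4 members below the filter were tested only in the fit without it, where none passed (adjusted p 0.458 to 0.828).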
